A study of Mus musculus with 4 samples.

Results

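The genes of the proteasome were compared between GPR15-positive and GPR15-negative CD4 T cells. Members were all genes whose symbol starts with Psm, then one of the letters a to g, then a digit, each read from its single-symbol probe set of highest mean over the 4 arrays. This gave 49 of 18194 named genes, of which 47 passed the filter on dim genes (a mean of log2(signal + 16) above the 40th percentile of probe sets, which corresponds to a signal of 27.3) and 2, Psma8 and Psmg3, did not. The choice used names and brightness over both groups together, and not the difference between them. Psme2, a subunit of an activator, was not analysed here because its probe set is listed under several symbols.

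The cells were sorted from collagenase-digested lamina propria of the large intestine, the connective tissue below the gut epithelium. The donors were mice of a mixed 129/B6 strain, heterozygous for a green fluorescent protein (GFP) knock-in at the Gpr15 locus, so both groups carried the knock-in and GFP stood for expression of the chemoattractant receptor GPR15. The GFP-negative group and the GFP-positive group had 2 Affymetrix arrays each, numbered replicate 1 and replicate 2, and the series design text once writes the GFP-negative cells as lacking CD4 where every sample label gives CD4 T cells. The labels give neither the age of the mice nor how many were pooled. A p-value here covers the spread between these arrays only, which includes the difference of sex described below.

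The proteasome is the protease that degrades proteins tagged with ubiquitin. A barrel-shaped core particle of alpha and beta subunits holds the active sites, and a regulatory particle of ATPases and non-ATPases recognises, unfolds and feeds in the substrate. Interferon gamma induces replacement of the constitutive catalytic subunits by those of the immunoproteasome, which lymphocytes express abundantly and which cuts peptides suited to presentation on MHC class I. Nfe2l1 encodes a transcription factor known for raising the transcription of constitutive proteasome genes together, through antioxidant response elements.

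Promoters are shown for the catalytic pairs Psmb5 with Psmb8 and Psmb6 with Psmb9, which enter the comparison of constitutive with immunoproteasome subunits. The remaining pair of that comparison, Psmb7 with Psmb10, is not shown because no promoter window of Psmb7 was available. Each runs 5′ to 3′ on the gene's own strand from 250 bases before its start to 50 after, in RefSeq's GRCm38.p6, and capitals mark matches to an antioxidant response element core (TGACNNNGC) or an interferon response element (GAAA, any 2 bases, GAAA), searched on both strands. The windows lie at chr14:54617946-54618245 on the minus strand for Psmb5, at chr17:34197945-34198244 on the plus strand for Psmb8, at chr11:70525107-70525406 on the plus strand for Psmb6 and at chr17:34187281-34187580 on the minus strand for Psmb9.
Psmb5: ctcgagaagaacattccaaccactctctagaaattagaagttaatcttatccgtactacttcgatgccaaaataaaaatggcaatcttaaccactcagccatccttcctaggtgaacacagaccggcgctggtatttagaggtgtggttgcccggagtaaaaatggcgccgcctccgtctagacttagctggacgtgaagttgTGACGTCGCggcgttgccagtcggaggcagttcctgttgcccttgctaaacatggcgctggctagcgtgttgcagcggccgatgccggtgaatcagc
Psmb8: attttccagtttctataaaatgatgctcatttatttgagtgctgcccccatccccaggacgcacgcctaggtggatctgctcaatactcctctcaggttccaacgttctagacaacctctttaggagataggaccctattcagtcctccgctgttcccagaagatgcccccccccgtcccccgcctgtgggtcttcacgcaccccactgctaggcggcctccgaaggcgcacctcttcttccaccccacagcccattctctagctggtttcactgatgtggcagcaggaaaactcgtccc
Psmb6: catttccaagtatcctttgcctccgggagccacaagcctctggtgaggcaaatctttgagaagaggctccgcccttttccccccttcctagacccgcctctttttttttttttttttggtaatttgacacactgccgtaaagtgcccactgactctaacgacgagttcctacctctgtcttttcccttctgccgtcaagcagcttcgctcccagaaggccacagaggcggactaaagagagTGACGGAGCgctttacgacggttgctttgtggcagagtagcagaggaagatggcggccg
Psmb9: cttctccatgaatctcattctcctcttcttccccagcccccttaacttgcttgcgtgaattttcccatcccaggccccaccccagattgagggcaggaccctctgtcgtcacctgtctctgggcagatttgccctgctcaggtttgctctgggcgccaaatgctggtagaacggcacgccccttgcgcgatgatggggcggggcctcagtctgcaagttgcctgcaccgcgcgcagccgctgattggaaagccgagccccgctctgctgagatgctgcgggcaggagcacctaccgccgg

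The match in Psmb5 began 47 bases before the start, and that in Psmb6 9 bases before it. The windows of Psmb8 and Psmb9 held neither set of letters. Of the 49 members 41 had a promoter in the RefSeq table, in 44 windows. The antioxidant letters stood in 6 of these windows (13.6%) against 12.4% of all 32851 windows, in Psmb5, Psmb6, Psmc6, Psmd12, Psmd9 and Psme4. The interferon letters stood in 5 (11.4%) against 3.44% of all windows, in Psmb3, Psmd4, Psmd9, Psme1 and Psmg4. A match of letters is a description and not evidence of binding.

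Signals below are linear array intensities, given for replicates 1 and 2 in that order, and differences are of log2(signal + 16). Gpr15 itself measured 146 and 162 in GFP-negative against 619 and 729 in GFP-positive cells. Only 4 genes of 12253 tested with limma (0.0326%) had an adjusted p below 0.05, here termed called. Gpr15 was not among them, with a log2 difference of 2.02 (limma, adjusted p = 0.0829). The test thus did not call even the gene whose GFP knock-in defined the groups, and a gene that was not called can still differ. Markers of CD4 T cells were bright in all samples. The signals of 7 genes summed to 16515 and 15777 in GFP-negative against 16015 and 14118 in GFP-positive cells, lower within both replicates. Xist was bright on both replicate 1 arrays and Eif2s3y on both replicate 2 arrays, the pattern of female and of male animals, so the replicate number also separates the sexes. The fit of group means does not take this into account, so the spread behind its p-values and intervals includes it. Differences within each number are given below for the members' median, Psmb9, Psmb11 and the catalytic pairs.

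Most proteasome transcripts differed little between the populations, and none passed the test. None of the 47 tested members was called (limma, adjusted p from 0.241 upward). At an unadjusted p under 0.05, 1 member was higher (Psmb11, which passed the dim filter only through its GFP-positive arrays), against 10.2% of all tested genes, and 0 were lower, against 4.37%. The log2 differences, GFP-positive minus GFP-negative, ran from -0.54 to 1.08 with a median of -0.08, where all tested genes had a median of 0.07. Of the 47 members 44 (93.6%) lay within 0.5 of 0 on the log2 scale, against 74.6% of all tested genes. Among genes above the 60th percentile of signal, where most members lie, the shares were 41 of 43 members (95.3%) and 79.1% of 8546 genes. The SD of the differences was 0.28 over the 47 members and 0.48 over all tested genes, and 0.22 and 0.47 above the 60th percentile. For 39 members the 95% interval lay wholly between -1 and 1 on this scale, which understates the fold of dim genes, and this held for 56.8% of all tested genes.

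**Figure D1:**
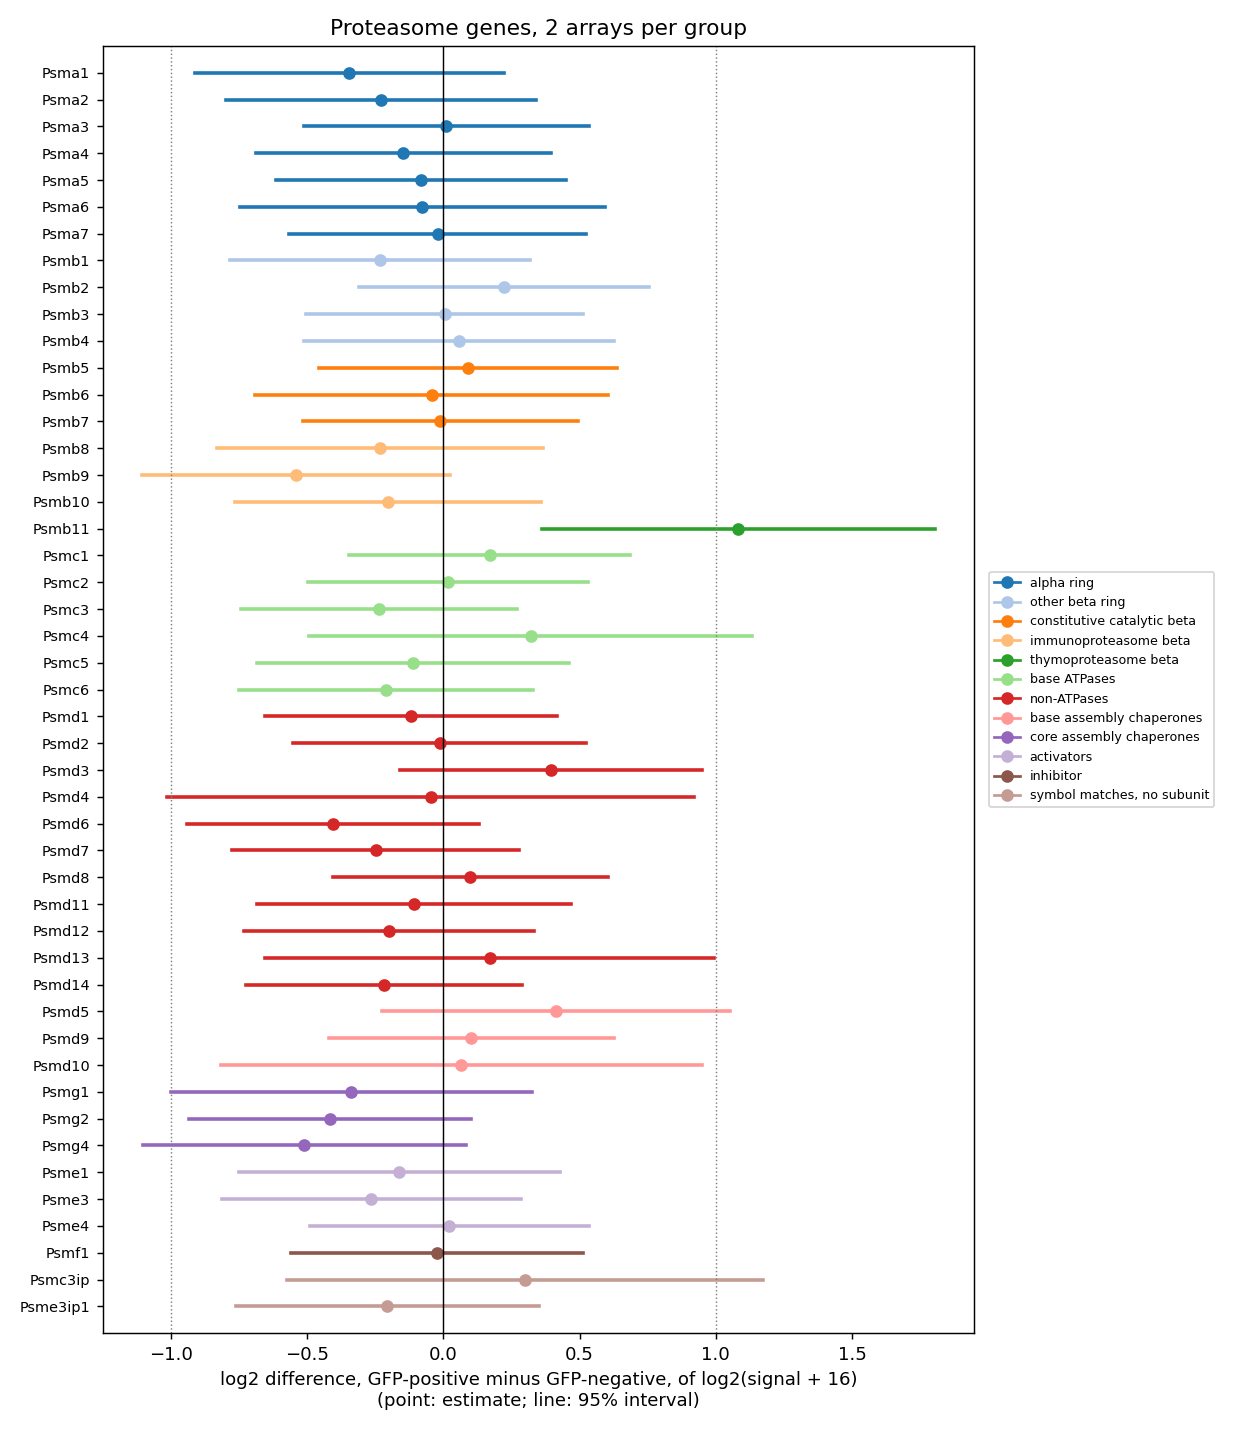
Log2 difference between GFP-positive and GFP-negative cells (x axis, of log2(signal + 16)) for the 47 tested members (y axis), with points for the estimate, lines for the 95% interval from limma, colours for the role and dotted lines at -1 and 1. The interval of Psmb11 alone leaves out 0.

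Below the level of single genes there was a small lean. Differences below 0 were found for 30 of 47 members (63.8%), against 42.3% of all tested genes. Groups did not overlap for 13 members lower in GFP-positive cells (27.7%), against 18.6% of all genes, and for 7 higher (14.9%), against 28.7%. The background was closer among genes above the 60th percentile of signal, where 28 of 43 members (65.1%) and 48.5% of all genes were below 0. There 12 members (27.9%) against 23.5% of all genes were lower without overlap, and 6 members (14%) against 24.8% were higher. The members' median was -0.02 within replicate 1 and -0.15 within replicate 2. The lean depended on the scaling of the arrays. Dividing each array by its median moved the median of all genes by -0.27, and then 42 members were below 0 and 8 were lower at an unadjusted p under 0.05, against 13.8% of all genes. Relative to the median of all genes, the members' median was -0.15 as deposited, -0.19 under median scaling, -0.06 under quantile and -0.05 under cyclic loess normalization.

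**Figure D2:**
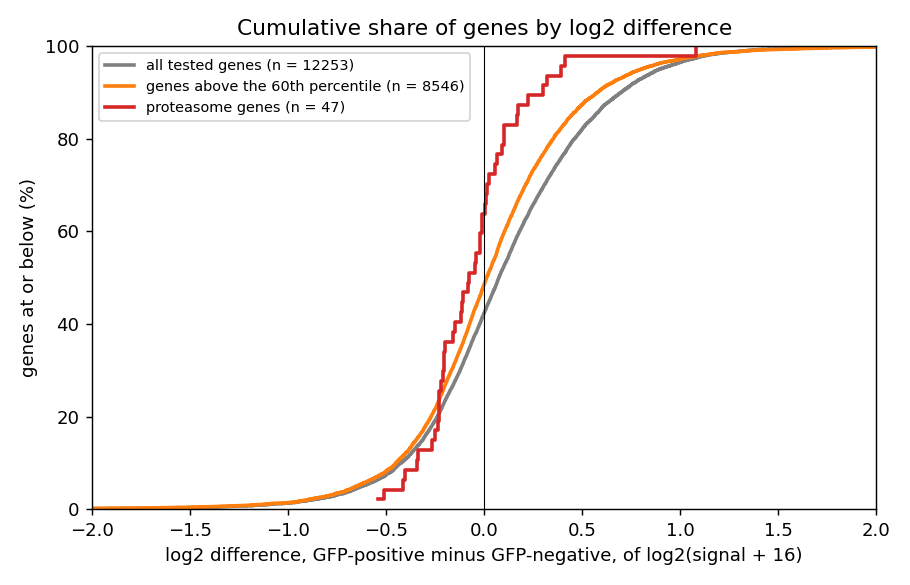
Cumulative share of genes (y axis, percent) by log2 difference (x axis) for the 47 proteasome genes, all 12253 tested genes and the 8546 genes above the 60th percentile of signal. The curve of the proteasome genes is the steepest, and crosses 0 at 63.8%.

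The constitutive catalytic subunits differed by -0.04 to 0.09, and none passed the test. Psmb5, which carries the chymotrypsin-like site, had signals of 322 and 268 in GFP-negative against 330 and 298 in GFP-positive cells. Its log2 difference was 0.09 (95% interval -0.46 to 0.64), and the groups overlapped. Psmb6, with the caspase-like site, had signals of 623 and 892 against 667 and 785. The replicate 2 arrays were the brighter of each group, and the difference was -0.04 (-0.69 to 0.61). Psmb7, with the trypsin-like site, had signals of 1426 and 1491 against 1456 and 1438, with both GFP-positive arrays between the GFP-negative ones. Its difference of -0.01 had an interval of -0.52 to 0.50. The direction of these differences was not fixed. Psmb6 and Psmb7 turned to 0.030 and 0.040 under quantile normalization and to 0.024 and 0.064 under cyclic loess. Median scaling, a shift of -0.27 for the median gene, put Psmb5 at -0.21.

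The immunoproteasome subunits each had a lower mean in GFP-positive cells, and none passed the test. Psmb8, which takes the place of Psmb5, had signals of 482 and 370 in GFP-negative and 390 and 327 in GFP-positive cells, and the groups overlapped. Its difference was -0.23 (-0.83 to 0.37, adjusted p = 0.707). It was -0.048 without GFP-negative replicate 1 and -0.42 without GFP-negative replicate 2. Psmb9, which takes the place of Psmb6, had signals of 302 and 302 in GFP-negative and 231 and 178 in GFP-positive cells. Both GFP-positive arrays were below both GFP-negative ones, as for 18.6% of all genes. The means were 302 ± 0.39 and 204 ± 37.8 (SD, n = 2), and the difference was -0.54 (-1.10 to 0.03, adjusted p = 0.358). It was -0.37 within replicate 1 and -0.71 within replicate 2. Psmb10, which takes the place of Psmb7, had signals of 143 and 154 against 111 and 144. The GFP-positive replicate 1 array was low, the other 3 were close together, and the difference was -0.20 (-0.77 to 0.36, adjusted p = 0.73). Without GFP-positive replicate 1 the difference of Psmb10 was -0.037, and without GFP-positive replicate 2 it was -0.37.

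Set against their constitutive counterparts, the immunoproteasome genes had the more negative difference in each pair. The difference of Psmb8 minus that of Psmb5 was -0.32, with -0.33 within replicate 1 and -0.31 within replicate 2. For Psmb9 minus Psmb6 it was -0.50, with -0.46 and -0.53. For Psmb10 minus Psmb7 it was -0.19, with -0.35 and -0.03. The mean of the 3 pairs was -0.34, with -0.38 within replicate 1 and -0.29 within replicate 2. The log2 ratio of Psmb9 to Psmb6 overlapped between groups, at -1.01 and -1.52 in GFP-negative against -1.47 and -2.05 in GFP-positive cells. Ratios of the other pairs did not overlap, by a narrow margin for Psmb10 to Psmb7. Within-replicate values pair arrays by number, and no label says that equal numbers share mice. All 6 within-replicate values were below 0, but they come from the same 2 arrays per group, so the 3 pairs are not separate replicates. The size is small, and an exact permutation test of 2 arrays against 2 cannot give a p below 0.333, so none was run. The mean stayed between -0.44 and -0.24 under every alternative run, and was -0.24 without GFP-negative replicate 1. The other filters, the trend and robust settings and the replicate block cannot change this mean, and left it at -0.34.

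**Figure D3:**
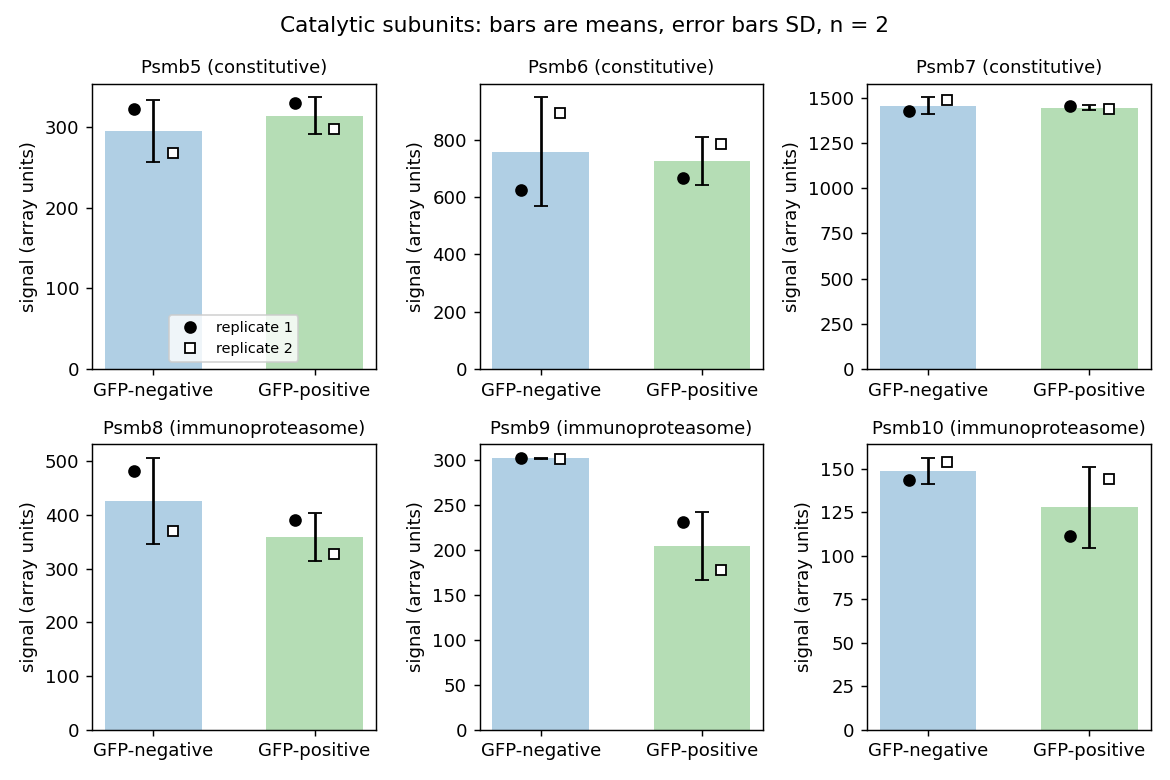
Signal of the 6 catalytic subunits (y axis, array units, from 0) in GFP-negative and GFP-positive cells, with bars for the mean, error bars for the SD (n = 2), filled circles for replicate 1 and open squares for replicate 2. The groups overlap for all but Psmb9, at 302 and 302 against 231 and 178.

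Psmb11, the catalytic subunit of the thymoproteasome of cortical thymic epithelium, had the largest difference of the 47 tested members. Its signals were 8.27 and 22.5 in GFP-negative and 54.3 and 43.6 in GFP-positive cells, and the groups did not overlap. The difference was 1.08 (0.36 to 1.80), the adjusted p was 0.241, and 4.9% of all tested genes differed by at least 1. Its GFP-negative mean lies below the dim filter, so it was tested only through the group where it is high, and its difference is given as a description. These signals are close to the medians of the arrays, which were 36.1 to 46.0, and the GFP-negative ones are below them. The difference was 1.53 within replicate 1 and 0.63 within replicate 2, and ran from 0.51 with a pseudocount of 64 to 1.75 with one of 1.

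No gene of the rest of the beta ring or of the alpha ring passed the test. The 4 other beta ring genes differed by -0.23 to 0.22. Psmb2 had signals of 107 and 101 against 114 and 135, with both GFP-positive arrays above both GFP-negative ones, and a difference of 0.22 (-0.31 to 0.76), or -0.056 under median scaling, which shifts all genes together. Of the 7 alpha ring genes, whose products form the gated entry of the core, 6 had a difference below 0. Psma3 differed by 0.01 (-0.51 to 0.53). Psma1 had signals of 551 and 469 against 438 and 360, with GFP-positive lower on both arrays, and a difference of -0.34 (-0.91 to 0.22, adjusted p = 0.542). Other probe sets of Psma1 above the dim filter ran from -0.08 to 0.25. The testis-specific alpha form Psma8 was dim on every array, between 3.58 and 9.21.

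No ATPase or non-ATPase gene of the regulatory particle passed the test. Differences ran both ways, with 11 of 17 below 0, where 63.8% of all tested members and 42.3% of all tested genes were. The 6 ATPase genes Psmc1 to Psmc6, whose products unfold substrates, had a median of -0.05 and ran from -0.24 to 0.32. At the upper end Psmc4 had signals of 596 and 1104 against 1041 and 994. The GFP-negative replicate 1 array was low and the other 3 were alike, and without it the difference of 0.32 turned to -0.12. Of the 11 non-ATPase genes 8 had a difference below 0, with a median of -0.11. Psmd6, a lid subunit, had signals of 1317 and 1275 against 895 and 1064, with GFP-positive lower on both arrays. Its difference was -0.40 (-0.94 to 0.13, adjusted p = 0.451), and -0.12 on its other probe set. Psmd3, a lid subunit as well, had signals of 71.5 and 81.5 against 117 and 94.3, higher on both GFP-positive arrays, and a difference of 0.39 (-0.16 to 0.95). Psmd14, the deubiquitinase of the lid, and Psmd4, a ubiquitin receptor, differed by -0.22 (-0.72 to 0.29) and -0.05 (-1.01 to 0.92). Psmd4 had the widest interval of the 47 members, and its signals were near 320 to 330 on the replicate 1 arrays and 177 to 183 on the replicate 2 arrays of both groups.

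No assembly chaperone passed the test. Psmg1 to Psmg4 encode chaperones that build the alpha ring, and all 3 tested ones had a difference below 0. Psmg4 had signals of 68.0 and 73.4 in GFP-negative and 36.7 and 54.4 in GFP-positive cells, without overlap, and a difference of -0.51 (-1.10 to 0.08, adjusted p = 0.397). Psmg2 had signals of 140 and 159 against 108 and 108, without overlap. Its difference was -0.42 (-0.93 to 0.10, adjusted p = 0.423), and -0.18 as the mean of its probe sets, which ran from -0.49 to 0.36. Psmg1 differed by -0.34. Psmg3, the partner of Psmg4, was below the filter, with signals of 68.5 and 26.4 against 11.3 and 3.25. Tested without the filter, it differed by -1.38 (-2.44 to -0.33, adjusted p = 0.364). The 3 chaperones of the base differed by 0.07 to 0.41. Psmd5, at the upper end, had signals of 89.3 and 134 against 161 and 142, higher on both GFP-positive arrays, with a difference of 0.41 (-0.22 to 1.05).

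Activators and the inhibitor did not pass the test either. Psme1, an interferon-induced activator subunit, had signals of 763 and 585 against 637 and 558, with overlap, and a difference of -0.16 (-0.75 to 0.43), which was 0.026 without GFP-negative replicate 1. Psme3 and Psme4, whose products are nuclear activators, differed by -0.26 (-0.81 to 0.29) and 0.02 (-0.49 to 0.54). Psmf1, a proteasome inhibitor, differed by -0.02 (-0.56 to 0.51). The 2 remaining members are no subunits. Psmc3ip, a partner in meiotic recombination, differed by 0.30 (-0.57 to 1.17), and by -0.62 on its other probe set. As for Psmb11, the GFP-negative mean of Psmc3ip lies below the dim filter. It was thus tested only through the group where it is high, and its difference is given as a description. Psme3ip1, named for binding Psme3, differed by -0.21 (-0.76 to 0.35).

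Probe sets of one gene did not always have the same sign. Of the 49 members 27 had more than 1 single-symbol probe set, 22 of them with another one above the dim filter, and for 12 at least 1 of these had a difference of the opposite sign. The probe sets read for Psma6, Psmb4, Psmc2 and Psmd13, and for Psmd11 and Psme4, carry suffixes of classes that can bind other transcripts. Each of Psmb5, Psmb6, Psmb7, Psmb9, Psmb10 and Psmb11 had 1 probe set only, and the second one of Psmb8 was dim.

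Genes that work with the proteasome differed by -0.49 to 0.38. Of 26 listed partners 15 could be tested, none was called, and 0 were higher or lower at an unadjusted p under 0.05. Their median difference was -0.09. Usp14 and Uchl5 encode deubiquitinases that trim ubiquitin chains on the proteasome. Usp14 had signals of 600 and 561 against 380 and 442, and Uchl5 of 544 and 409 against 357 and 355, both lower on each GFP-positive array. Their differences were -0.49 (-1.02 to 0.05) and -0.39 (-0.97 to 0.19). Akirin2, needed for import of proteasomes into the nucleus, had signals of 434 and 426 against 554 and 577, and a difference of 0.38 (-0.12 to 0.89). Ubqln2, a shuttle for ubiquitin-tagged proteins, differed by 0.13 (-0.45 to 0.71). Pomp, which matures the core, and Nfe2l1 differed by 0.09 (-0.63 to 0.80) and -0.11 (-0.67 to 0.45).

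MHC class I loading, which uses the peptides the immunoproteasome makes, was the second list. Of its 12 tested genes none was called, 0 were higher or lower at an unadjusted p under 0.05, and the median was -0.06. In the RefSeq gene order Psmb9, Tap1, Psmb8 and Tap2 follow each other in the MHC region of chromosome 17. The promoter window of Tap1, on the plus strand, shares 275 of 300 bases with that of Psmb9 printed above. Tap1, a subunit of the peptide transporter, had signals of 264 and 273 in GFP-negative and 213 and 215 in GFP-positive cells. As for Psmb9, both GFP-positive arrays were lower, with a difference of -0.31 (-0.81 to 0.20, adjusted p = 0.542). Tap2, its partner, had signals of 33.6 and 49.7 against 51.9 and 30.4 and differed by -0.02 (-0.73 to 0.68). Nlrc5, an activator of MHC class I genes, had signals of 3633 and 3806 against 3063 and 2376, without overlap, and a difference of -0.46 (-1.03 to 0.11, adjusted p = 0.421). Tapbp, the loading factor tapasin, and Erap1, a peptidase that trims peptides, had the largest differences above 0, at 0.05 and 0.03.

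Genes of the interferon gamma response held the largest differences among the 3 lists. Of 16 listed genes 11 were tested, with a median of 0.15 against 0.07 over all tested genes. At an unadjusted p under 0.05 3 were higher and 0 lower, against 10.2% and 4.37% of all genes, and none was called. Gbp3, a guanylate-binding GTPase, had signals of 377 and 497 against 1026 and 1313, and a difference of 1.39 (0.76 to 2.02, adjusted p = 0.167). Icam1, an adhesion molecule, differed by 0.80 (0.19 to 1.42). Gbp7, of the family of Gbp3, was the other member higher at an unadjusted p under 0.05, at 0.58 (0.04 to 1.12). Irf1, the transcription factor known for inducing immunoproteasome genes, had signals of 966 and 988 against 838 and 781, lower on both GFP-positive arrays, with a difference of -0.27 (-0.78 to 0.24). Irgm1, an immunity-related GTPase, differed by -0.34 (-0.89 to 0.22), and Iigp1, another, by -0.28 (-0.89 to 0.34).

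**Figure D4:**
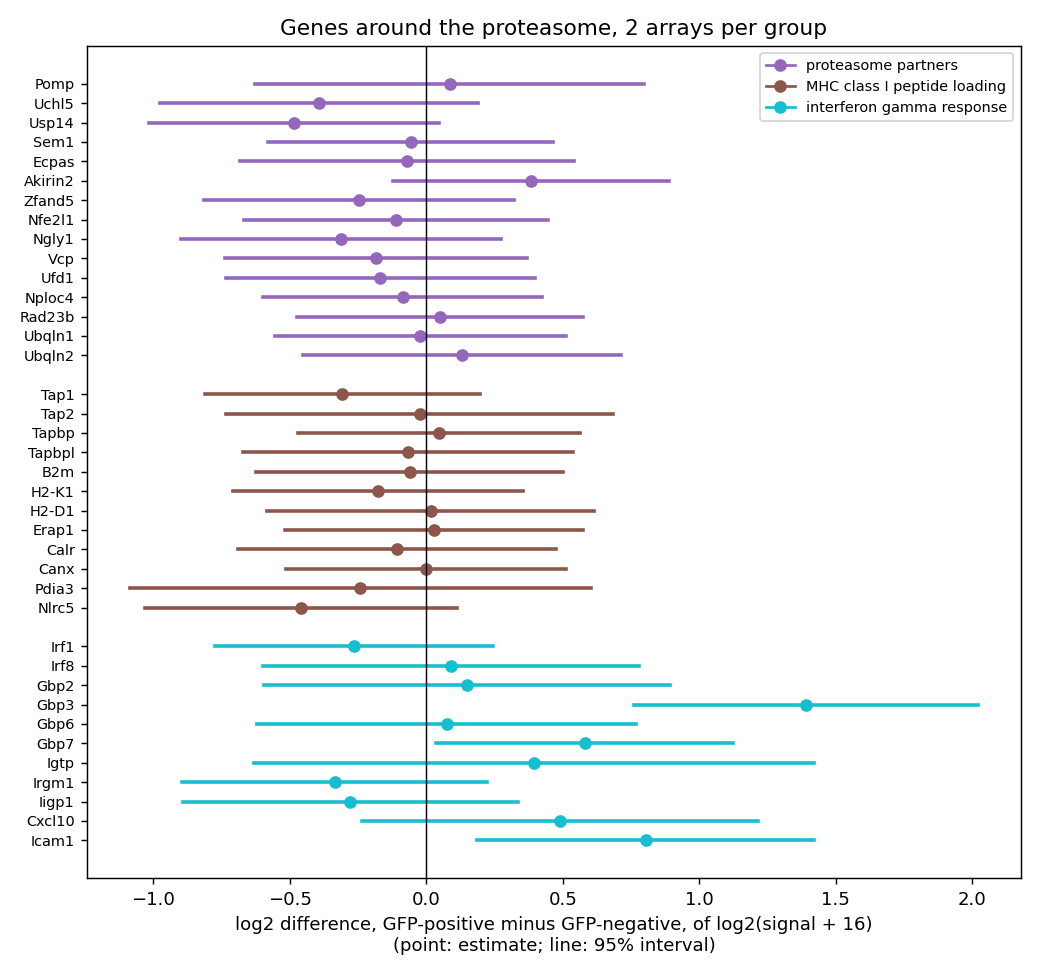
Log2 difference between GFP-positive and GFP-negative cells (x axis, of log2(signal + 16)) for tested partners of the proteasome, MHC class I loading genes and interferon gamma response genes (y axis), with points for the estimate and lines for the 95% interval. The intervals of Gbp3, Gbp7 and Icam1 lie above 0 and those of the other genes include it.

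Markers of several other cell types differed between the arrays. Of 12 myeloid markers 7 were higher on both GFP-positive arrays, against 28.7% of all tested genes, and 3 of these 7 (Itgam, C1qa and C1qc) were below the dim filter. The myeloid signals summed to 246 and 436 against 363 and 1529, those of 4 MHC class II genes to 300.1 and 958 against 789 and 2061, and those of 4 dendritic cell markers to 208 and 188 against 345 and 373. B cell markers (5 genes) summed to 138 and 171 against 234 and 229, and plasma cell markers (4 genes) to 4141 and 4839 against 6836 and 4454. Epithelial markers (10 genes) summed to 665 and 795 against 2824 and 555, stromal markers (6 genes) to 323 and 1001 against 567 and 896, and endothelial markers (4 genes) to 154 and 126 against 124 and 129. For CD8 T and NK cells (3 genes) the sums were 79.6 and 63.7 against 77.0 and 91.5. The myeloid, MHC class II, dendritic and B cell sums were higher in GFP-positive cells within both replicates, and the other sums given here differed in direction between replicates. In bulk samples a change in the number of such cells and in RNA per cell cannot be told apart, and the part of these cells in the proteasome values was not tested.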

How the data were processed

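Total RNA of each sample was biotin-labelled and hybridised to an Affymetrix array, per the labels. Each deposited table gives a linear intensity for every probe set; which software made it is not given in the sources used here. Each array had a mean of 150.0 after trimming 2% at each end, so arrays had been scaled by 1 factor each, and no quantile normalization was found in the deposited intensity values.

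Probe sets were named through the platform annotation, which can be old. Signals were taken to log2 after adding 16, and differences on this scale understate changes of dim genes. Each gene was read from its single-symbol probe set of highest mean log2 value. The 12253 genes above the 40th percentile (a signal of about 27.3) were tested two-sided with limma 3.58.1 in R 4.3.3, fitting group means, and Benjamini-Hochberg adjustment over all of them. Intervals are 95% intervals of that fit. The fit was tested on simulated data. Alternatives were other pseudocounts, normalizations, filters and probe set rules, limma's trend and robust settings, the replicate number as a block, and leaving out each array.

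Members given with the signal on each array were Psmb5 to Psmb10, Psme1, the 5 of smallest p in each direction and those differing by at least 1. Of the other lists the 2 of smallest p per direction were named, with Pomp, Nfe2l1, Tap1, Tap2 and Irf1. Members and lists were chosen with earlier results of these data known. Psma3, Psmd4, Psmd14, Psme3, Psme4, Psmf1, Psmg1, Psmc3ip and Psme3ip1 were named after their values were seen, for their role, as were Gbp7 and Iigp1. Precision is limited by having 2 arrays in each group.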

Additional observations from a re-analysis of the deposited data

How the results depend on the processing

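No proteasome gene was called by limma in any of the 14 alternative fits, where 0 to 2 were higher and 0 to 8 lower at an unadjusted p under 0.05. In each case 1 was lower with a pseudocount of 64 (Psmb9), under quantile and cyclic loess normalization (Psmg4) and without a filter (Psmg3), 2 with trend and robust settings (Psmb9 and Psmd6) and 8 under median scaling. With the 60th percentile filter 0 were higher and 1 (Psmb9) lower, and with the mean of probe sets 2 were higher (Psmb11 and Psmc1) and 1 (Psmb9) lower. Without 1 array 1 to 2 were higher and 0 lower, the second, without GFP-negative replicate 2, being Psmc4. The median difference of the members was -0.39 under median scaling, and ran from -0.11 to -0.05 without 1 array. The mean of the catalytic pairs was -0.44 with the mean of probe sets, and ran from -0.44 to -0.24 without 1 array. With the mean of probe sets only Psmb8 of these genes changed, from -0.23 to -0.54, as its dim second probe set was averaged in.

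Over all genes limma called 4, but 0 with a pseudocount of 1, under quantile, cyclic loess or median scaling, without a filter or without any 1 array (1211 to 2188 genes at an unadjusted p under 0.05 in these fits). It called 175 with a pseudocount of 64, 50 with the 60th percentile filter, 8 with the mean of probe sets and 241 with trend and robust settings. With the replicate number as a block 0 were called (2129 at an unadjusted p under 0.05), and 0 proteasome genes. Deviations of same-numbered arrays correlated at 0.198, and no label says that equal numbers share mice.

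Of 223 values of 16 named members, 211 kept their direction. Many of these could not turn. The other filters, the trend and robust settings and the replicate block leave each difference as it was. The mean of probe sets does so for members with 1 probe set. Under quantile, then cyclic loess normalization Psmb6 turned to 0.030 and 0.024 and Psmb7 to 0.040 and 0.064. Under median scaling, a shift of -0.27 for the median gene, Psmb5 was -0.21 and Psmb2 -0.056. Without 1 array, Psmb5 ran from -0.035 to 0.22 and Psmb7 from -0.042 to 0.021, both reversed without GFP-negative replicate 2. Psmb6 ran from -0.30 to 0.21, reversed without GFP-negative replicate 2 and, at 0.073, without GFP-positive replicate 1. Psme1 ran from -0.35 to 0.026 and Psmc4 from -0.12 to 0.76, both reversed without GFP-negative replicate 1. The cause of these turns was not tested. The arrays limit the rest: intervals of the members reach 0.50 to 0.97 to either side of the estimate.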
